A study of Mus musculus with 30 samples.

Results

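The proteasome subunit genes were taken as all protein-coding rows of the count table whose mouse symbol was Psma, Psmb, Psmc, Psmd or Psme followed by a number, with pseudogenes left out. This rule found 43 of the 38561 genes in the table, and 41 of them were among the 14438 genes with enough counts to be tested. The members were 8 20S alpha genes, 7 20S beta genes, 3 immunoproteasome genes, the thymus subunit gene Psmb11, 6 ATPase and 11 other subunit genes of the 19S regulatory particle, 3 genes of chaperones that assemble that particle, and 4 genes of other activators. Psma8, the alpha subunit of the testis, had 158 counts and Psmb11 33 counts in all 30 libraries together, and neither was tested. The RNA came from cultured adipose-derived stem cells, the fibroblast-like progenitor cells of fat, isolated from the inguinal fat pads of male C57BL6/J mice, sorted as Sca-1+, CD34+, CD31-, CD45- and Ter119-, and grown to passage 2 before they were frozen separately for each mouse. There were 6 aged obese, 8 aged lean, 8 young obese and 8 young lean mice, with 1 library from each. Aged mice were killed at 52 weeks and young mice at 20 weeks. Obese mice were fed chow that drew 60% of its calories from lard from weaning on and lean mice control chow, so age and time on the diet cannot be told apart in obese mice. Of 12 mice bought for the aged obese group, 8 were alive at 360 days, per the deposited overview, so aged obese libraries came from surviving mice.

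The proteasome is the protease that degrades proteins tagged with ubiquitin. Its barrel, the 20S core, is built of rings of alpha subunits, which gate the entrance, around rings of beta subunits, of which Psmb5, Psmb6 and Psmb7 encode the ones that cut. The 19S regulatory particle binds ubiquitin chains and feeds unfolded protein into the barrel with its ring of ATPases. Under interferon, cells make Psmb8, Psmb9 and Psmb10, which take the places of Psmb5, Psmb6 and Psmb7 in newly built particles (the immunoproteasome), and PA28 alpha and beta (Psme1 and Psme2), a cap that helps make peptides for MHC class I. In stromal cells without inflammation the standard form prevails.

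The promoters of the exchangeable catalytic subunits and of PA28 alpha and beta are shown because the results below turn on these genes, except that of Psmb7, which is named only. Each line gives the 100 bases before the start of the gene on the gene's own strand, from RefSeq on GRCm38.p6, with matches to the motifs in capitals.
Psmb8, chr17:34198095-34198194, plus strand: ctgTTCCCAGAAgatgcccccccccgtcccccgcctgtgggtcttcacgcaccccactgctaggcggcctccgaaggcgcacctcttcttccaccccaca
Psmb9, chr17:34187331-34187430, minus strand: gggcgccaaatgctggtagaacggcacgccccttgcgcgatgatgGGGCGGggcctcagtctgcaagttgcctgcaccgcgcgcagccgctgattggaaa
Psmb10, chr8:105938393-105938492, minus strand: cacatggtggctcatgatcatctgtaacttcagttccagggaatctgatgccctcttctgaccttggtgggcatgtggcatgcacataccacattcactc
Psmb5, chr14:54617996-54618095, minus strand: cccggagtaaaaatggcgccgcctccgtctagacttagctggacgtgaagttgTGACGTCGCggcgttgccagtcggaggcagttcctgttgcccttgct
Psmb6, chr11:70525257-70525356, plus strand: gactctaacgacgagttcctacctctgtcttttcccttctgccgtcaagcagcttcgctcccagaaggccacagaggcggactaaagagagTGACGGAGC
Psme1, chr14:55578394-55578493, plus strand: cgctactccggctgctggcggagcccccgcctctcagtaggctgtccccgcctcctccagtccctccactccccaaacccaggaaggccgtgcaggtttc
Psme2, chr14:55591102-55591201, minus strand: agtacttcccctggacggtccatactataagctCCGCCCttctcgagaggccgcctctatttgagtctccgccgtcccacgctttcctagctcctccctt

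The capitals mark a GAS motif (TTCNNNGAA, bound by STAT factors) in Psmb8, an antioxidant response element (TGACNNNGC, bound by NRF factors, which are known to drive proteasome genes) in Psmb5 and Psmb6, and a GC box (GGGCGG, bound by SP factors) in Psmb9 and Psme2. Matches on either strand were counted over the 250 bases before the start for the 36 members that had an entry, and overlaps between motifs were not removed. Members were counted by gene, with a match in any entry of the gene (Psme2 has 2), but all promoters by entry. The 2 shares given for each motif are therefore not quite like measures. The GC box was found in 21 of the 36 members (58.3%), against 32.7% of 32851 RefSeq promoters. The antioxidant response element was found in 5 members (13.9%, against 10.2% of all promoters), namely Psmb5, Psmb6, Psmc6, Psmd9 and Psmd12. The GAS motif was found in 1 member (2.78%, against 7.02%), Psmb8. The interferon-stimulated response element was found in 3 members (8.33%, against 2.98%), Psmb3, Psmd4 and Psmd9, and in none of the immunoproteasome genes. These are matches of letters only.

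The libraries held between 30597765 and 47970233 counts in genes, of which 95390 to 244423 counts (0.2765% to 0.5679%) fell on the members. Pairwise chi-square statistics per gene ranged from 6.34 to 476 within groups, so no pair agreed within sampling noise, but young obese 18, 19, 20, 21 and 23 lay between 6.34 and 21.9 of each other and young obese 1 and 2 at 8.23, against 125 to 202 between the 5 libraries and the other 3 of the group. Such sets may not be independent, and p-values then measure too small a spread. The progenitor markers Ly6a (Sca-1) and Cd34 were detected in every library, at 177 to 1254 CPM and 0.193 to 38.0 CPM. Of the markers of other cells, Ptprc was at 0 in 26, Adgre1 in 28 and Cd3e in 29 of 30 libraries, Hbb-bs, Hba-a1 and Lep were at 0 in all 30, and Pecam1 reached at most 0.278 CPM. Other markers on the same lists were detected, with Tek at 0.642 to 16.2 CPM and Kdr at up to 2.004 CPM among 6 endothelial markers, and Fabp4 at 20.06 to 112 CPM and Adipoq at up to 16.4 CPM among 5 adipocyte markers. Over the whole list of 8 haematopoietic markers, the summed level was 15.9 to 30.02 CPM in aged obese, 12.1 to 36.8 in aged lean, 19.5 to 31.5 in young obese and 14.9 to 35.1 in young lean libraries, most of it from Csf1r (8.22 to 30.7 CPM). The endothelial sum was 1.28 to 20.9 CPM in aged obese, 4.25 to 17.1 in aged lean, 3.2 to 7.501 in young obese and 6.03 to 15.01 in young lean libraries. The adipocyte sum was 41.0 to 69.3 CPM in aged obese, 20.7 to 138 in aged lean, 24.4 to 69.7 in young obese and 26.1 to 103 in young lean libraries. The sum of 5 mural cell markers was higher, with Myh11 and Des at up to 275 and 278 CPM. It was 196 to 598 CPM in aged obese, 92.35 to 229 in aged lean, 132 to 305 in young obese and 137 to 264 in young lean libraries. The part of these cells in the results was not tested. In bulk RNA, fewer cells of a type and less RNA per cell cannot be told apart.

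Transcripts of the standard proteasome dominated over those of the immunoproteasome in these cells, while protein was not measured. A gene's level is its CPM, the count divided by the TMM-scaled size of the library, and between genes as CPM per kilobase of the transcript with the longest coding sequence in GENCODE vM21, so they depend on that choice of transcript. Over all 30 libraries Psma7 was the highest 20S alpha gene (mean 169.7 CPM per kb) and Psma2 the lowest tested one (37.8 CPM per kb). Among 20S beta genes Psmb4, a structural subunit, was highest (143 CPM per kb) and Psmb5, the chymotrypsin-like one, lowest (66.3 CPM per kb). Among ATPases Psmc5 was highest (89.0 CPM per kb) and Psmc6 lowest (42.7 CPM per kb). Among the other 19S subunits Psmd8 was the highest of all members (187 CPM per kb), while Psmd11 was lowest (28.2 CPM per kb). The subunits of the 20S and 19S thus lay within about an order of magnitude of each other. The immunoproteasome genes lay below all of them, with Psmb10 at 14.9, Psmb8 at 5.80 and Psmb9 at 1.43 CPM per kb. Of the activators, Psme2 was highest (65.8 CPM per kb) and Psme4, which encodes the large cap PA200, lowest (11.8 CPM per kb). Psmb5, Psmb6, Psmb7 and Psme2 have copies elsewhere in the genome. The copy gene Psme2b held 1578 counts and the pseudogenes of Psmb5, Psmb6 and Psmb7 0, 5 and 3 counts in all, so reads lost between copies cannot be told from these counts and the 4 values are uncertain.

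Psmb10 held the largest share of its position. Taking the level per kilobase of both genes of a pair, Psmb10 made up 12.3% ± 2.02 of Psmb10 plus Psmb7, Psmb8 8.20% ± 2.25 of Psmb8 plus Psmb5, and Psmb9 1.04% ± 0.382 of Psmb9 plus Psmb6 (SD, n = 30 libraries). The Psmb10 share was 13.2% ± 0.967 in 6 aged obese, 12.6% ± 2.09 in 8 aged lean, 10.6% ± 1.93 in 8 young obese and 12.9% ± 1.96 in 8 young lean libraries. These are shares of transcript, and the depth behind Psmb9 was thin, with 2105 counts over all libraries.

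**Figure D1:**
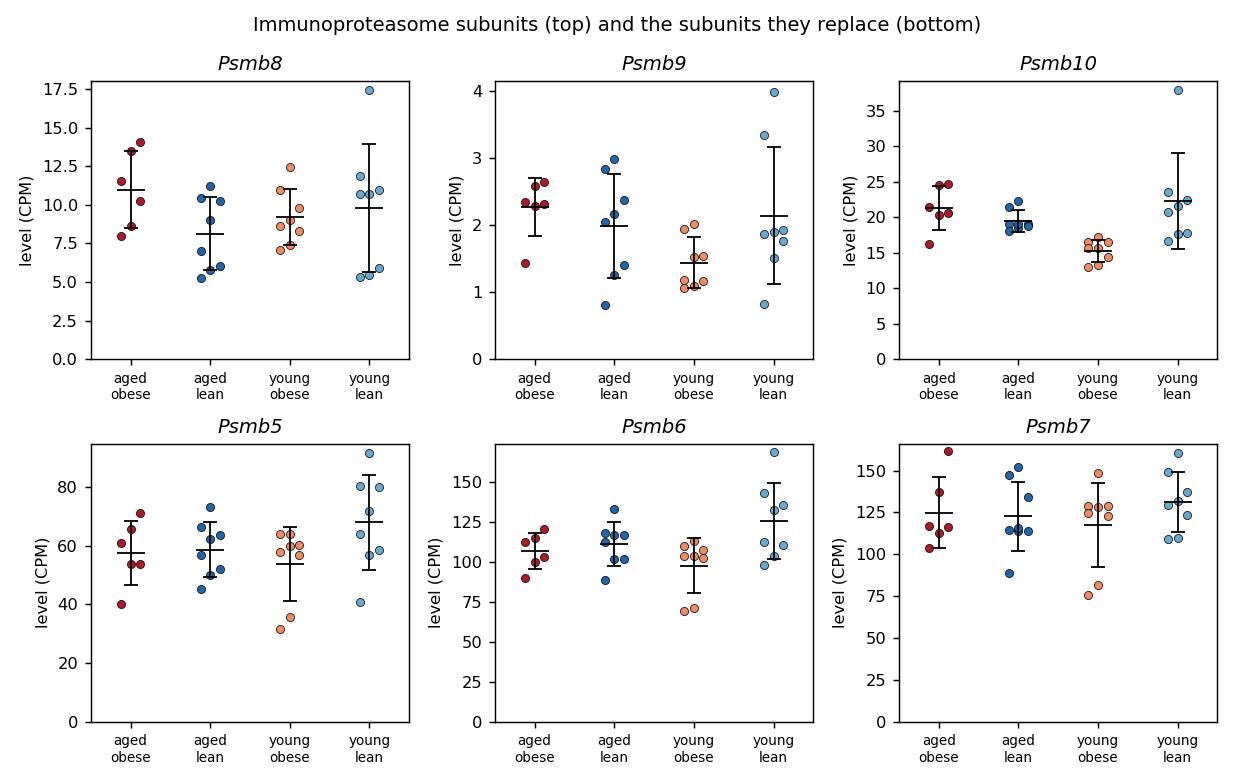
Level of the immunoproteasome genes Psmb8, Psmb9 and Psmb10 (top row) and of the genes they replace, Psmb5, Psmb6 and Psmb7 (bottom row), in CPM on linear axes that start at 0, with 1 point per library, a dash at the mean and bars of 1 SD, for 6 aged obese, 8 aged lean, 8 young obese and 8 young lean libraries. Psmb10 lay between 12.96 and 17.2 CPM in young obese and between 16.6 and 38.0 CPM in young lean libraries, and in the lower row young obese 1 and 2 form a low pair for each gene.

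The first comparison asked how obesity changed the subunits in young mice. In young obese cells 5 of the 41 tested members fell and 0 rose (edgeR quasi-likelihood test, Benjamini-Hochberg adjusted over all genes). That was 12.2% of the members, against 5.37% of all tested genes that fell, 3.46% that rose and 8.83% called in either direction. The 5 were the immunoproteasome gene Psmb10, the 20S beta genes Psmb1, Psmb4 and Psmb6, and Psme2 (PA28 beta). The members' median log2 fold change was -0.11, against -0.02 for all tested genes, and 33 of 41 values were negative. The groups overlapped for every member, against 1.61% of all tested genes for which they did not.

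Psmb10, the trypsin-like subunit of the immunoproteasome, had a lowest, median and highest level of 12.96, 15.7 and 17.2 CPM in young obese libraries, against 16.6, 21.1 and 38.0 CPM in young lean libraries. All 8 young obese libraries lay below the young lean median, and the groups overlapped between 16.6 and 17.2 CPM. Psmb10 fell by 0.54 ± 0.12 on the log2 scale (adjusted p = 0.0151). The highest young lean value belonged to library 26, and without it the log2 fold change was -0.39 with an adjusted p that stayed below the threshold, as it did with any other single library left out (highest adjusted p = 0.04). Without young obese 1 and 2 together it was -0.50 (adjusted p = 0.0603), and with the near-alike young obese libraries summed into 3 samples it was -0.53 (adjusted p = 0.224).

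The other immunoproteasome genes did not pass. Psmb9, which replaces the caspase-like subunit Psmb6, lay at 1.07, 1.35 and 2.01 CPM in young obese and 0.818, 1.88 and 3.99 CPM in young lean libraries (lowest, median and highest), with a log2 fold change of -0.57 ± 0.26 (adjusted p = 0.153). Psmb8, which replaces the chymotrypsin-like Psmb5, lay at 7.11, 8.81 and 12.4 CPM in young obese and 5.30, 10.7 and 17.4 CPM in young lean libraries, with a log2 fold change of -0.09 ± 0.21 (adjusted p = 0.822). For both genes the young obese range lay inside the young lean range. The sign for Psmb8 turned positive without young lean 26 and in 3 other settings.

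Of the 7 20S beta genes 3 fell. Psmb1, a structural beta subunit, lay at 131, 159.7 and 175 CPM in young obese and 148, 194 and 270.3 CPM in young lean libraries, a log2 fold change of -0.34 ± 0.09 (adjusted p = 0.0247). Psmb4, also structural, lay at 112, 158 and 170.0 CPM in young obese and 148, 183 and 268 CPM in young lean libraries (log2 fold change -0.33 ± 0.10, adjusted p = 0.0436). Psmb6, the caspase-like subunit, lay at 69.4, 104 and 113 CPM in young obese and 97.9, 123 and 169 CPM in young lean libraries (log2 fold change -0.36 ± 0.11, adjusted p = 0.0443). For all 3 genes every young obese library was below the young lean median, young obese 1 and 2 were the lowest of their group and young lean 26 was the highest library of all. The remaining 4 beta genes had negative values that did not pass, namely Psmb5 with a log2 fold change of -0.34 ± 0.16 (adjusted p = 0.15), Psmb3 with -0.26 ± 0.17 (adjusted p = 0.315), Psmb2 with -0.14 ± 0.09 (adjusted p = 0.329) and Psmb7, the trypsin-like subunit, with -0.16 ± 0.13 (adjusted p = 0.417). The level of Psmb5 was 31.7 and 35.8 CPM in young obese 1 and 2, while its 6 companions ranged from 56.9 to 64.0 CPM. All 7 tested 20S alpha genes had negative values as well, between -0.25 and -0.05, and none passed. The median log2 fold change was -0.33 over the 7 beta genes and -0.20 over the 7 alpha genes.

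The PA28 genes had values of opposite sign. Psme2 lay at 44.5, 53.8 and 60.6 CPM in young obese and 45.2, 70.6 and 114 CPM in young lean libraries, and fell by 0.42 ± 0.12 on the log2 scale (adjusted p = 0.0345). Its partner Psme1 (PA28 alpha) lay at 34.2, 39.0 and 44.9 CPM in young obese and 41.3, 49.4 and 74.2 CPM in young lean libraries (log2 fold change -0.37 ± 0.13, adjusted p = 0.0587), and missed the threshold. Psme3, which encodes the nuclear activator PA28 gamma, lay at 87.8, 96.9 and 110.3 CPM in young obese and 50.6, 76.1 and 88.5 CPM in young lean libraries. Every young obese library was above the young lean median of Psme3, with an overlap between 87.8 and 88.5 CPM, and its log2 fold change of 0.37 ± 0.12 missed the threshold (adjusted p = 0.0562). With the size factors of DESeq2 in place of TMM, Psme3 passed and Psmb4 did not, which gave 1 member higher and 4 lower. Psme4 had a log2 fold change of 0.14 ± 0.09 (adjusted p = 0.358).

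None of the 17 19S subunit genes among the members passed in edgeR or DESeq2, while voom called Psmd1, Psmd2 and Psmd11 among 4266 of 14438 genes. Sem1, a 19S subunit gene that the symbol rule left out, did pass in edgeR and is given with the other lists below. The 6 ATPase genes had log2 fold changes down to -0.18, all negative (median -0.06). The 11 other subunit genes among the members had values from -0.19 for Psmd4, a ubiquitin receptor, to 0.36 for Psmd1, a scaffold of the base, 5 of them positive (median -0.01). Of the assembly chaperones, Psmd10 had a log2 fold change of -0.31 ± 0.10 (adjusted p = 0.0559), Psmd9 of -0.22 ± 0.07 (adjusted p = 0.0562) and Psmd5 of 0.07 ± 0.19 (adjusted p = 0.838). Summed per length, the 20S genes reached 1287 ± 240 CPM per kb in young obese and 1518 ± 223 in young lean libraries, and the 19S genes 1203 ± 210 CPM per kb in young obese and 1226 ± 101 in young lean libraries (SD, n = 8 each). The 19S sum was 0.938 ± 0.033 of the 20S sum in young obese, against 0.816 ± 0.075 in young lean libraries, with ranges of 0.894 to 0.995 and 0.695 to 0.916 that overlapped. These sums are given without a test.

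**Figure D2:**
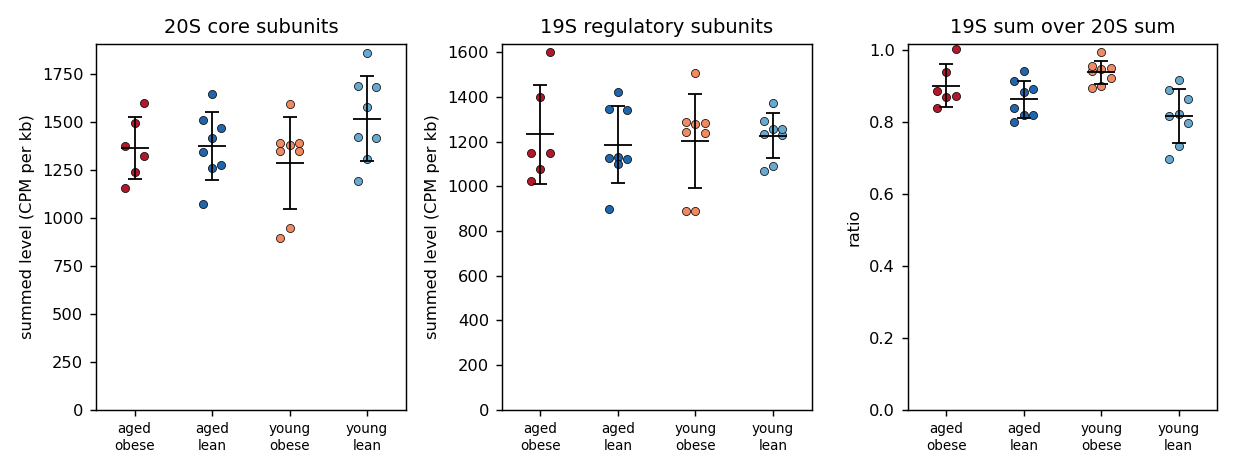
Summed level of the 20S genes and of the 19S ATPase and other subunit genes in CPM per kb, and the ratio of the 19S to the 20S sum, by library, with the mean and 1 SD for 6 aged obese, 8 aged lean, 8 young obese and 8 young lean libraries on axes that start at 0. The ratio lay between 0.894 and 0.995 in young obese and between 0.695 and 0.916 in young lean libraries, and young obese 1 and 2 were low in both sums (896 and 946 CPM per kb for the 20S).

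Transcript length and single libraries moved with these values. The tested members had a median transcript length of 1540 bases (899 for 20S beta genes), against 2749 over all tested genes. A slope on log2 length was taken for each library's log2 level relative to the gene's mean over all libraries. It was 0.0651 ± 0.0652 in young obese and -0.0522 ± 0.11 in young lean libraries (SD, n = 8 each). It was -0.247 in young lean 26 and 0.177 and 0.164 in young obese 1 and 2. Once each library had an offset for GC and length, 0 members passed in young mice (287 genes did), and Psmb10 had a log2 fold change of -0.31 (adjusted p = 0.0852). Under that offset the median was -0.03 over the 14 20S genes, 4 of them positive, and 0.10 over the 17 19S genes, 15 of them positive. Psme3 and Psmd1 kept values of 0.38 and 0.34 under the offset. Without young obese 1 and 2 the count of members that fell was also 0 (143 of 14403 genes were called), and without young lean 7, 26 or 27, or young obese 1 or 2, it was 1, Psmb10 each time. These fits with 1 library left out called 201 to 485 genes. The count was 2 without young lean 23 or young obese 20 or 21 (713 to 857 genes called). It was 3 without young obese 19 or 23 (1050 and 951 genes called). In these fits the members' share was close to that of all tested genes. Without any other single library 5 to 7 members fell (826 to 2197 genes called), a larger share than of all tested genes. Whether length, or a property of these libraries, gave rise to the lower values was not tested.

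**Figure D3:**
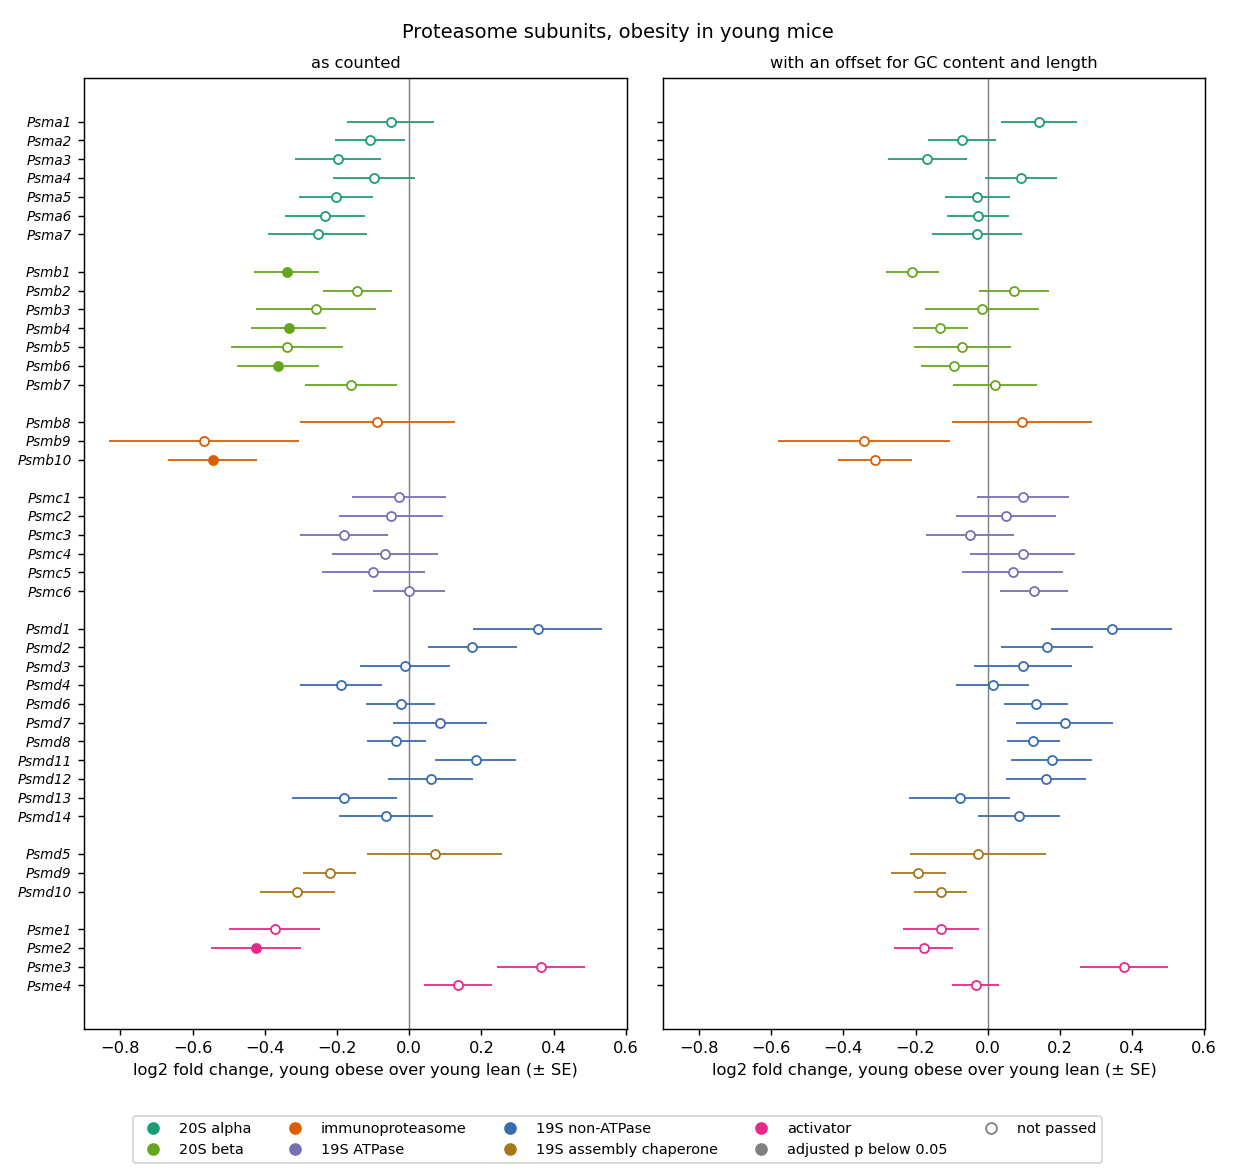
Log2 fold change of young obese over young lean with its SE (bars) for the 41 tested members, coloured by class, as counted (left) and with an offset per library for GC content and length (right), where filled points had an adjusted p below 0.05. On the left 5 points are filled, all negative and at -0.33 or lower, and on the right 0 are filled and the 20S genes lie around 0 (median -0.03).

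The second comparison asked how age changed the subunits in obese mice. In aged obese cells 1 of 41 members rose and 0 fell, which is 2.44% of the members, against 3.07% of all tested genes called, 1.87% that rose and 1.2% that fell, a share near that of all genes. The groups overlapped for every member, against 1.18% of all tested genes for which they did not. The member that rose was Psmb10, at 16.2, 21.03 and 24.7 CPM in aged obese libraries, against 12.96, 15.7 and 17.2 CPM in young obese libraries (lowest, median and highest). All 6 aged obese libraries were above the young obese median and 1 of them, aged obese 17, lay inside the young obese range. The log2 fold change was 0.48 ± 0.13 (adjusted p = 0.0432), and it passed in 3 of the 14 fits that left out 1 library, without aged obese 16 or 17 or young obese 22, while in the other 11 the adjusted p reached up to 0.1105. With the near-alike young obese libraries summed it was 0.48 with an adjusted p of 0.541. Under the GC and length offset Psmb10 passed (0.40, adjusted p = 0.0389), as it did with DESeq2, its size factors, voom and only the compared groups. It did not pass with no filter, without young obese 1 and 2 or without aged obese 10 and 12. The same 8 young obese libraries enter the comparison with young lean mice, so the opposite signs of Psmb10 in the 2 comparisons share them.

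Psmb9 lay at 1.43, 2.33 and 2.65 CPM in aged obese and 1.07, 1.35 and 2.01 CPM in young obese libraries, which gave 0.65 ± 0.28 on the log2 scale (adjusted p = 0.193). Every aged obese library was above the young obese median, but the spread was wide and the value did not pass. Psmb8 had a log2 fold change of 0.26 ± 0.23 (adjusted p = 0.579). Psme1 had 0.32 ± 0.14 (adjusted p = 0.185), Psme2 0.26 ± 0.13 (adjusted p = 0.286) and Psme3 -0.15 ± 0.13 (adjusted p = 0.559). The constitutive catalytic genes had values of 0.10 ± 0.17 for Psmb5, 0.13 ± 0.12 for Psmb6 and 0.09 ± 0.14 for Psmb7, and the 14 20S genes a median of 0.07, which turned to -0.06 without young obese 1 and 2 and with voom, and to -0.04 without aged obese 10 and 12. Without aged obese 10 and 12 together, 1 member rose and 2 fell, and Psme1 passed (log2 fold change 0.48, adjusted p = 0.0219) while Psmb10 did not (0.37, adjusted p = 0.0727). That fit called 2679 of 14648 genes, a larger share than of the members. The mural cell markers, summed over 5 genes, reached 196 to 598 CPM in aged obese and 132 to 305 CPM in young obese libraries, and their part in these values was not tested.

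With obesity in aged mice 0 of 41 members passed, against 0.222% of all tested genes (0.166% higher and 0.0554% lower), and 0 members, against 12.7% of all tested genes, had an unadjusted p below 0.05. DESeq2 and voom also called 0 members. Psmb8 had the largest value, at 7.96, 10.9 and 14.1 CPM in aged obese and 5.27, 8.02 and 11.2 CPM in aged lean libraries, a log2 fold change of 0.44 ± 0.23 (adjusted p = 0.44). The groups overlapped, with 5 of 6 aged obese libraries above the aged lean median. Psmb10 lay at 16.2, 21.03 and 24.7 CPM in aged obese and 18.04, 18.98 and 22.3 CPM in aged lean libraries (log2 fold change 0.13 ± 0.13, adjusted p = 0.765), and Psmb9 had a value of 0.19 ± 0.28 (adjusted p = 0.855). Psmb5, Psmb6 and Psmb7 had log2 fold changes of -0.03 ± 0.17, -0.06 ± 0.12 and 0.03 ± 0.14, and Psme1, Psme2 and Psme3 of 0.05 ± 0.14, 0.01 ± 0.13 and 0.19 ± 0.13. The members' median was 0.03.

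With age in lean mice 0 of 41 members passed in edgeR, as did 0% of all tested genes, and 0 members, against 5.35% of all genes, had an unadjusted p below 0.05. DESeq2 and voom called 0 members as well. The members' median log2 fold change was -0.08, and 36 of 41 values were negative, against 7861 of all 14438 tested genes. All 14 tested 20S genes were among the negative ones. Under the GC and length offset the members' median was -0.02, with 12 of the 14 20S genes negative and 9 of the 17 19S genes positive. Most genes of the standard particle varied together (below), so signs counted over members are not independent. Psmb8 (-0.27 ± 0.21, adjusted p = 0.877), Psmb9 (-0.11 ± 0.26, adjusted p = 0.974) and Psmb10 (-0.19 ± 0.12, adjusted p = 0.85) did not pass. Psmb5, Psmb6 and Psmb7 had values of -0.21 ± 0.16, -0.18 ± 0.11 and -0.10 ± 0.13, and Psme1, Psme2 and Psme3 of -0.10 ± 0.13, -0.17 ± 0.12 and 0.02 ± 0.12.

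The obesity effect in aged mice minus that in young mice passed for 0 of 41 members, against 0.00693% of all tested genes, while 5 members, and 8% of all tested genes, had an unadjusted p below 0.05. DESeq2 and voom also called 0. The largest differences on the log2 scale were 0.76 ± 0.38 for Psmb9 (adjusted p = 0.624), 0.67 ± 0.18 for Psmb10 (adjusted p = 0.29) and 0.52 ± 0.31 for Psmb8 (adjusted p = 0.657). Psme1 and Psme2 had differences of 0.42 ± 0.18 and 0.43 ± 0.18, and Psme3 of -0.18 ± 0.18. Psmb5, Psmb6 and Psmb7 had differences of 0.31 ± 0.23, 0.31 ± 0.17 and 0.19 ± 0.19. A fall of Psmb10 with obesity was thus called in young mice, but was not shown to differ from the effect in aged mice.

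The balance of each immunoproteasome gene against its constitutive counterpart was compared as the log2 ratio of CPM per library, with an exact two-sided permutation test over libraries, adjusted over 12 tests (3 ratios in 4 comparisons). No ratio passed. Psmb10 to Psmb7 was -2.91 ± 0.28 in young obese and -2.59 ± 0.23 in young lean libraries (SD, n = 8 each), a difference of -0.32 (exact p = 0.025, adjusted p = 0.15). In aged obese libraries it was -2.54 ± 0.12 (n = 6), a difference of 0.37 from young obese libraries (exact p = 0.0153, adjusted p = 0.15). Psmb8 to Psmb5 went the other way in young mice, at -2.52 ± 0.34 in young obese and -2.86 ± 0.48 in young lean libraries (n = 8 each), a difference of 0.35 (exact p = 0.124, adjusted p = 0.299). Psmb9 to Psmb6 was -6.05 ± 0.43 in young obese and -5.95 ± 0.56 in young lean libraries (n = 8 each), a difference of -0.09 (exact p = 0.709, adjusted p = 0.868). The 3 differences thus had both signs in young obese cells. Without young obese 1 and 2 the Psmb10 to Psmb7 differences were -0.45 with obesity in young mice (exact test, adjusted p = 0.004) and 0.49 with age in obese mice (exact test, adjusted p = 0.013), and both passed, as they did without young obese 1 alone (-0.39 and 0.44, exact test, adjusted p = 0.0175 each), but 5 of the 6 libraries left in the young obese group without both were the near-alike ones.

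Over the 30 libraries most genes of the standard particle varied together, while the genes of the immunoproteasome and PA28 differed in how far they followed them. Pearson correlations of deviations from the group means (log2 CPM) are given as a description, since the points share library scaling, RNA preparation and, in the young obese group, near-alike libraries. The median over pairs was 0.907 among 20S alpha genes, 0.841 among 20S beta genes and 0.953 among ATPase genes, and 0.866 between alpha and ATPase genes. Between alpha and immunoproteasome genes it was 0.138. The member most like Psmb5 was Psmb6 (r = 0.961) and the one most like Psmb4 was Psmb1 (r = 0.927). Psmb8 was most like Psmb9 (r = 0.686) and Psmb9 most like Psme1 (r = 0.769). Psmb10 was most like the chaperone gene Psmd9 (r = 0.713), and its median r with the 20S genes was 0.506, against 0.174 for Psmb8 and -0.159 for Psmb9. Psme2 was most like Psmb1 (r = 0.848), and its median r with the 20S genes was 0.337, against -0.336 for Psme1. Psmd1 had the lowest median r with the 20S genes among the 17 19S genes (0.355), and its r with Psmb1 was -0.355.

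Psme1 ran opposite to Psmd1 (r = -0.869) and to Psme3. The correlation of Psme1 and Psme3 was -0.839 (Spearman rho -0.834) over 30 libraries and -0.776 without the 2 libraries farthest from the median of Psme1, aged lean 17 and young lean 26. Within groups r was -0.866 in 6 aged obese, -0.897 in 8 aged lean, -0.639 in 8 young obese and -0.838 in 8 young lean libraries. With 1 library kept from each near-alike set it was -0.852 over 25 libraries, and under the GC and length offset it was -0.668. Psme3 was in turn most like the 19S scaffold gene Psmd1 (r = 0.881). These 3 genes differ in length, with 1112 bases for Psme1, 2664 for Psme3 and 3112 for Psmd1.

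**Figure D4:**
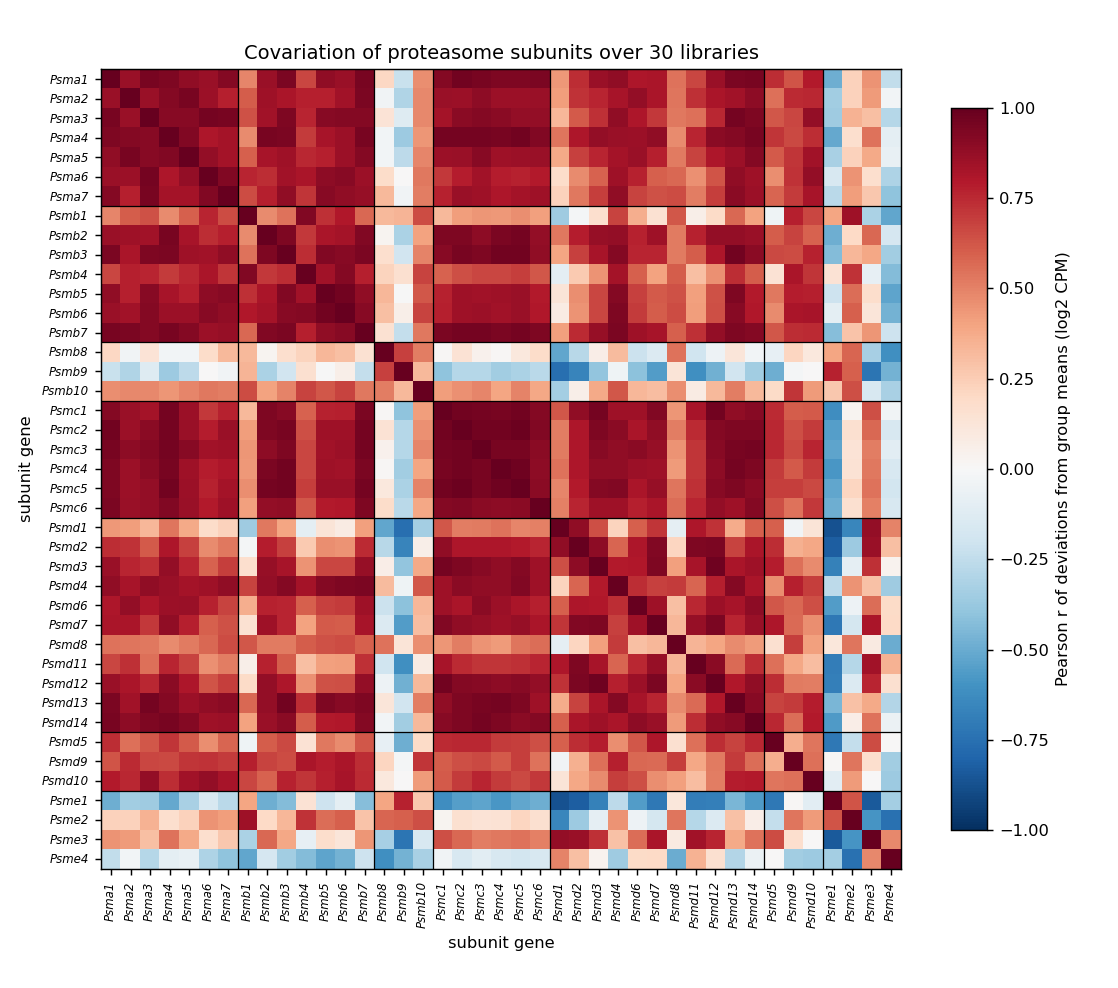
Pearson r between the 41 tested members over 30 libraries, computed on deviations of log2 CPM from the group means, with members ordered by class (black lines between classes) and colours from blue (-1) to red (1). The 20S and ATPase genes form red blocks (median r 0.907 among alpha and 0.953 among ATPase genes), while Psmb8, Psmb9, Psme1 and Psme4 form pale or blue bands.

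**Figure D5:**
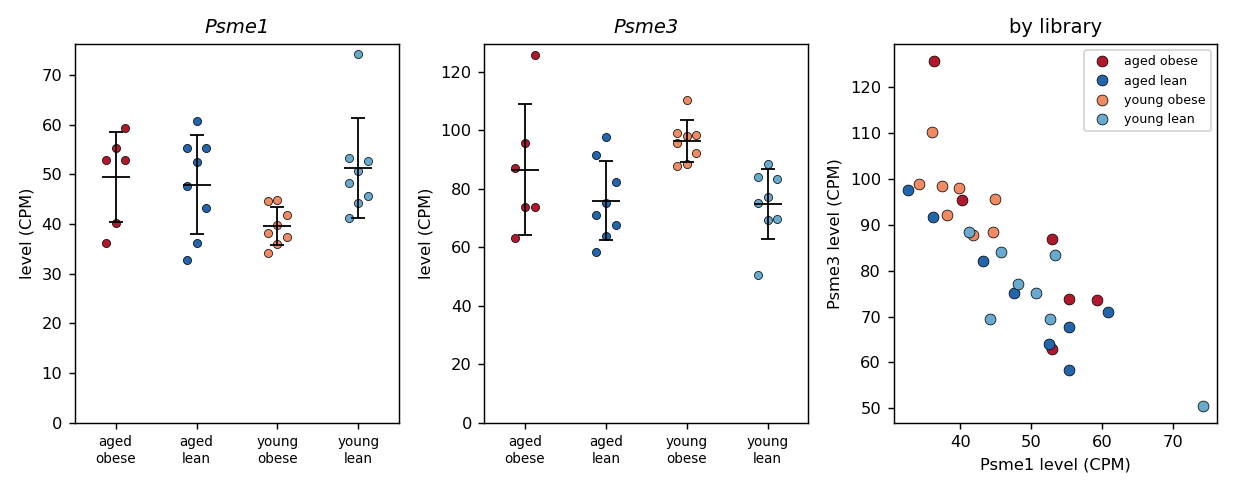
Level of Psme1 (left) and Psme3 (middle) in CPM by library, with the mean and 1 SD for 6 aged obese, 8 aged lean, 8 young obese and 8 young lean libraries, and both genes against each other (right), with 1 point per library. Libraries with more Psme1 had less Psme3 (r = -0.839 on deviations from the group means), from aged obese 10 with 36.3 and 126 CPM to young lean 26 with 74.2 and 50.6 CPM.

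Genes around the proteasome were counted on 4 lists, to be read against 3.46% of all tested genes higher and 5.37% lower with obesity in young mice, and 1.87% higher and 1.2% lower with age in obese mice. With 0 to 2 genes called per list and comparison, no list is shown to differ from these shares. Of 17 matched assembly factors and associated proteins, 1 fell in young obese cells and 0 rose, while with age in obese mice 2 rose and 0 fell. Sem1, the smallest subunit of the 19S lid, which the symbol rule left out, was at 101 ± 9.67 CPM in young obese and 135 ± 32.4 CPM in young lean libraries (log2 fold change -0.43 ± 0.10, adjusted p = 0.0201). Adrm1, a ubiquitin receptor of the 19S particle that the rule also left out, was at 102 ± 15.04 CPM in 6 aged obese and 76.8 ± 8.72 CPM in 8 young obese libraries (on the log2 scale 0.41 ± 0.10, adjusted p = 0.0325). Zfand5, a proteasome-binding zinc finger protein, was at 78.6 ± 20.2 CPM in aged obese and 50.2 ± 1.54 CPM in young obese libraries (on the log2 scale 0.65 ± 0.14, adjusted p = 0.0169).

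Of 8 genes listed as regulators of proteasome gene transcription, 0 passed with obesity in young mice, with a median of 0.05, and with age in obese mice 1 rose and 1 fell. The kinase gene Tbk1 rose by 0.30 ± 0.08, and Ddi2, which encodes the protease that activates the transcription factor NRF1, fell by 0.42 ± 0.12 on the log2 scale (adjusted p = 0.0372 and 0.0467). Whether Tbk1 acts on proteasome genes in these cells was not tested. Of 13 ubiquitin, E1 and shuttle genes, 1 rose and 1 fell in young obese cells. Uba6, a ubiquitin-activating enzyme, was at 37.5 ± 10.9 CPM in young obese and 21.8 ± 7.43 CPM in young lean libraries (log2 fold change 0.78 ± 0.18, adjusted p = 0.0151), and the ubiquitin fusion gene Rps27a at 644 ± 24.3 CPM in young obese and 925 ± 277 CPM in young lean libraries (log2 fold change -0.52 ± 0.14, adjusted p = 0.0236). Of 13 genes of MHC class I processing and interferon regulation, B2m, the light chain of MHC class I, was the 1 that fell in young obese cells, at 286 ± 14.98 CPM in young obese and 358 ± 77.8 CPM in young lean libraries (log2 fold change -0.33 ± 0.10, adjusted p = 0.0454). The list's median there was -0.28, with 9 of 13 values negative. With age in obese mice 1 of the 13 rose, the peptide-loading chaperone Tapbp, at 90.6 ± 20.8 CPM in aged obese and 55.6 ± 19.8 CPM in young obese libraries (on the log2 scale 0.70 ± 0.20, adjusted p = 0.0498), and the median was 0.23. Over all 4 lists 0 genes passed with obesity in aged mice, with age in lean mice or for the obesity effect in aged minus young mice.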

How the data were processed

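RNA-seq of 30 libraries was analysed from the deposited table of raw counts per Ensembl gene. The submitters' processing notes name STAR, DESeq2 1.12.4 and HTSeq 0.7.0. Build, annotation and strand setting are not given in the sources used here, and overlapping and antisense genes could not be told apart. Reads in no gene (3.94% to 8.75%) and ambiguous reads (2.69% to 3.41%) were left out. Groups and mouse numbers came from the sample titles. In edgeR 4.0.16 (R 4.3.3), genes passing filterByExpr were scaled with TMM, and all 30 libraries entered 1 quasi-likelihood model of the groups. P-values were adjusted over 14438 genes, and the threshold was 0.05. On simulated data the fit recovered known changes, but the simulation held no near-alike libraries and no length trends. Most called members had smaller changes than those simulated. Ratios used log2 CPM with a prior count of 2. Alternatives were DESeq2 1.42.0, its size factors, voom (limma 3.58.1), no filter, only the compared groups, an offset for GC content and length, libraries left out, a replicate block, and near-alike libraries summed (chosen after seeing the data, as were the correlations and sums). Named with values were the exchangeable catalytic and PA28 genes, called members, the highest and lowest member per class by level per length, and called genes of the other lists, of which 1 result is not reported here; Psmd1, Psmd4 and the chaperones were added after their values were seen. The members and gene lists were chosen with earlier results of these data known.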

Additional observations from a re-analysis of the deposited data

Results flagged for a closer look

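Of 56 groups of values examined for a library far from the rest of its group, 5 held one, where chance alone gives about 1 in 20. Psmb10 was at 37.96 CPM in young lean 26, against 16.6 to 23.6 CPM in the other 7 young lean libraries. Psme1 was at 74.2 CPM in the same library, against 41.3 to 53.3 CPM in the others. Psmb9 was at 1.434 CPM in aged obese 10, while the rest of its group ranged from 2.28 to 2.65 CPM, and its log2 ratio to Psmb6 there was -6.336, against -5.549 to -5.247. The log2 ratio of Psmb8 to Psmb5 was -2.745 in aged obese 15, against -2.391 to -2.208 in the other 5.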

How the results depend on the processing

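With obesity in young mice member counts (0 higher, 5 lower) became 1 and 4 with DESeq2 size factors (1221 of 14438 genes called). They became 0 and 1 with no filter (371 of 25811 genes called) and 1 and 6 with DESeq2 (1771 genes). With only the compared groups they were 1 and 3 (1642 of 13626 genes, a larger share than of the members). With voom they were 4 and 9 (4266 of 14438 genes, a like share). No member passed (0 lower) under the GC and length offset (287 genes called), without young obese 1 and 2 (143 genes), with near-alike libraries summed or in the replicate block (0 genes in each). With single libraries left out, 0 to 1 were higher and 1 to 7 lower (201 to 2197 genes called). With age in obese mice the count higher (1) was 0 with no filter, without young obese 1 and 2 or with near-alike libraries summed, and 0 to 1 with single libraries left out. Voom gave 2 higher and 1 lower with a median of -0.1082, but called 2870 of 14438 genes, a larger share than of the members. Without aged obese 10 and 12, 2 were lower (2679 of 14648 genes called, also a larger share).

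The log2 fold change of Psmb8 with obesity in young mice turned to 0.0955 with the offset, 0.0419 with voom and 0.062 in the block (-0.1728 to 0.0817 with single libraries left out), and that of Psmb9 to 0.0707 in the block. The replicate block used libraries that share a mouse number (2 numbers in young mice, 4 in aged mice), and the young members' median was -0.3715. Deviations of same-numbered libraries correlated between -0.517 and 0.39. The sample titles do not say that a shared number pairs samples, so pairing was neither shown nor excluded.

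The Psmb10 to Psmb7 differences were -0.4484 (obesity in young) and 0.4941 (age in obese) without young obese 1 and 2, and ranged from -0.3934 to -0.2469 and from 0.3135 to 0.4391 with single libraries left out. With age in lean mice, ratios near 0 changed sign with single libraries left out, ranging from -0.1437 to 0.0826 for Psmb8 to Psmb5, -0.0617 to 0.259 for Psmb9 to Psmb6 and -0.09 to 0.0311 for Psmb10 to Psmb7. Causes were not tested. Psmb9 held 2105 counts in all, which limits its precision.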
